A study of Mus musculus with 7 samples.

Results

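The cytochrome P450 genes of families 1 to 3 encode the haem enzymes that oxidise drugs, toxins, steroids and fatty acids in the liver. They were taken as every protein-coding gene whose symbol is Cyp followed by 1, 2 or 3, a letter and a number. This gave 57 genes of the 21536 protein-coding genes with a known start in the GRCm38 (mm10) annotation, namely 3 of family 1, 47 of family 2 and 7 of family 3. They lie at 13 loci, and most sit in clusters of recent copies. The Cyp2c cluster holds 14 members over 1180 kb of chromosome 19, the Cyp2a, Cyp2b, Cyp2f, Cyp2g, Cyp2s and Cyp2t genes form 13 members over 1337 kb of chromosome 7, and the Cyp2d cluster holds 8 members over 414 kb of chromosome 15. The Cyp2j cluster holds 7 members on chromosome 4 and the main Cyp3a cluster 6 on chromosome 5. Neighbouring members are related by sequence and by position, so they are not independent of each other.

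Chromatin immunoprecipitation with sequencing (ChIP-seq) was performed on livers of male wild type C57BL/6 mice aged 3 months, with antibodies to the retinoid X receptor RXRα and to the α and β forms of the retinoic acid receptor (RARα and RARβ). The mice were fed either a normal diet (control) or a diet that contained retinoic acid (RA). The labels put the feeding at 1 day. The methods of the study describe a longer RA feeding, in general and for the expression assay, and do not single out ChIP-seq, so the length given in the labels is used here. There was 1 peak list per receptor and diet, 6 in all, and the sources used here do not say how many livers went into each library. No value below has a replicate check, no test between diets or receptors was possible, and differences describe these libraries only. The intervals given are Wilson 95% intervals and cover counting error only. A gene was called bound in a list if the midpoint of any peak fell no more than 10 kb from one of its starts. The lists differ in length. RARα had 35521 peaks under control and 44296 under RA, RARβ had 14968 and 29467, and RXRα had 61128 and 59624. The RARβ control list stands apart as the shortest, so the counts of bound genes that rest on it are also given from lists cut to equal length, in which each list keeps its 14968 highest-scoring peaks. Counts of regions and of overlaps with the RARβ control list, other than those with RXRα, are from the full lists. The peak score is the peak caller's own value, a multiple of the negative log10 of the peak's p-value. It is not normalised between libraries, so a score is read against its own list, as a percentile (the percent of that list's peaks that score no higher).

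RARα and RARβ are the receptors for RA, and they bind DNA together with RXRα, which is also the partner of the nuclear receptors that sense foreign chemicals. Those include PXR (Nr1i2) and CAR (Nr1i3), known for inducing Cyp3a and Cyp2b genes in liver, whereas Cyp1 genes are known as targets of the aryl hydrocarbon receptor (Ahr), which pairs with Arnt and not with RXRα. An RXRα peak thus does not tell which partner is present. RXRα and its partners read the hexamer AGGTCA and close variants of it, usually in pairs.

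Promoter windows of 300 bases, from 250 before to 50 after a start, were taken from RefSeq (GRCm38.p6) and were present for 50 of the 57 genes (53 windows, since some genes have several starts). An RXRα peak covered 29 of the 53 windows under control and 28 under RA (54.7% and 52.8%), against 28.9% and 30.8% of all 32851 windows of protein-coding genes. For RARα the shares were 50.9% under control and 56.6% under RA, against 34.7% and 34.1% of all windows. For RARβ they were 20.8% and 43.4%, against 23.3% and 30.0%. Each window was searched on both strands for the hexamer AGGTCA, for the variant AGTTCA, for the variant GGGTCA, and for GGTTCA, which joins both changes. AGGTCA was present in 19 of the 53 windows (35.8%), against 16.3% of all windows. AGTTCA was present in 11.3% (all windows 14.0%), GGGTCA in 7.55% (13.7%) and GGTTCA in 5.66% (10.4%). At least 1 of the 4 hexamers was found in 18 of the 31 windows that an RXRα peak covered under either diet and in 12 of the 22 windows that none covered. No member window held 2 of these hexamers in the same direction 1 to 5 bases apart, an arrangement found in 0.700% of all windows. GCGTG, the core letters of the aryl hydrocarbon receptor site, was present in 10 windows (18.9%, against 32.4% of all windows). These letters describe the windows and do not show where a receptor sat.

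The windows below are shown because they carry the peaks described further on. In each, capitals mark these 4 hexamers or their reverse complements. The first 4 belong to Cyp3a genes of the chromosome 5 cluster. Cyp3a59 lies at chr5:146079008-146079307 (plus strand), Cyp3a25 at chr5:146009568-146009867 (minus strand), Cyp3a57 at chr5:145345019-145345318 (plus strand) and Cyp3a11 at chr5:145879805-145880104 (minus strand).
Cyp3a59: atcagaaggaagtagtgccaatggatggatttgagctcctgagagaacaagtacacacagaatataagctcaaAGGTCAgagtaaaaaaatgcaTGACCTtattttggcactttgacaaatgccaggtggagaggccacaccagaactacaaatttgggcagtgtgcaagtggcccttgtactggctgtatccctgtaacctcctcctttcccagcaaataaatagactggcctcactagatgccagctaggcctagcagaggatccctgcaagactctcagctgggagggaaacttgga
Cyp3a25: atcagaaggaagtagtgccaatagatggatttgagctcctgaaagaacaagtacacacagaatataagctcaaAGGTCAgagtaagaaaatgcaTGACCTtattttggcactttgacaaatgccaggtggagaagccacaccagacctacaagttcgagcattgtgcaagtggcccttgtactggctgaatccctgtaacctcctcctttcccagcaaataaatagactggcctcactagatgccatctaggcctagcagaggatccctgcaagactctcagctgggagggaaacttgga
Cyp3a57: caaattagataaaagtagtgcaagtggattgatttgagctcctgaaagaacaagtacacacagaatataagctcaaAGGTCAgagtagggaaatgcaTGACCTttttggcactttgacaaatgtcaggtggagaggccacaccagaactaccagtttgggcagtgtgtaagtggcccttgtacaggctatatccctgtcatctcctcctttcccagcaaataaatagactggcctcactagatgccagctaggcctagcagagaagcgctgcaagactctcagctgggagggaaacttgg
Cyp3a11: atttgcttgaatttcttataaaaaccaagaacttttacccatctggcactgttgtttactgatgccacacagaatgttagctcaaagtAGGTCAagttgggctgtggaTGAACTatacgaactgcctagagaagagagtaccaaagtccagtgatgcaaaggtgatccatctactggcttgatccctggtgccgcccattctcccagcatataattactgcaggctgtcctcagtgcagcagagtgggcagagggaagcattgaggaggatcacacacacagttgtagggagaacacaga
Cyp3a59, Cyp3a25 and Cyp3a57 hold AGGTCA and, further on, its reverse complement TGACCT in the same layout. The first letters of the pair stand 177 and 156 bases before the start in Cyp3a59 and in Cyp3a25, and 174 and 153 bases before it in Cyp3a57. The windows of Cyp3a25 and Cyp3a59 are the same at 289 of 300 positions, and 29.7% of the 35-base words of each, the length of a read, occur in another gene's window. All 6 lists had a peak over the windows of Cyp3a25 and Cyp3a59, and 5 lists, without RARα under control, over that of Cyp3a57. In Cyp3a11, the main inducible Cyp3a gene of mouse liver, AGGTCA and TGAACT stand 162 and 142 bases before the start, and peaks of RARα and RXRα but not of RARβ covered the window under both diets.

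The next 4 windows are those of Cyp1a2 at chr9:57683606-57683905 (minus strand), Cyp2e1 at chr7:140763569-140763868 (plus strand), Cyp2j5 at chr4:96664070-96664369 (minus strand) and Cyp2r1 at chr7:114562923-114563222 (minus strand). Cyp1a2 metabolises caffeine, Cyp2e1 oxidises ethanol, Cyp2j5 acts on arachidonic acid and Cyp2r1 is a vitamin D 25-hydroxylase.
Cyp1a2: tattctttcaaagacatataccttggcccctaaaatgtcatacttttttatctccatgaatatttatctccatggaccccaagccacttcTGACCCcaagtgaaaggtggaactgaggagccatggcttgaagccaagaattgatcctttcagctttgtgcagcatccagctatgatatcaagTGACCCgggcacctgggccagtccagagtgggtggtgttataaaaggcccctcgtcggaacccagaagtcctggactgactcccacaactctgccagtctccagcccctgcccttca
Cyp2e1: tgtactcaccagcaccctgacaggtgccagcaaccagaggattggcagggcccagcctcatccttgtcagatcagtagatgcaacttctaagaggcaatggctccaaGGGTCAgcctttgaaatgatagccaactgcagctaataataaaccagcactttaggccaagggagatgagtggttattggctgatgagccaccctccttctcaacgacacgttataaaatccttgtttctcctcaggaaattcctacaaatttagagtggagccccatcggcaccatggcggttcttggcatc
Cyp2j5: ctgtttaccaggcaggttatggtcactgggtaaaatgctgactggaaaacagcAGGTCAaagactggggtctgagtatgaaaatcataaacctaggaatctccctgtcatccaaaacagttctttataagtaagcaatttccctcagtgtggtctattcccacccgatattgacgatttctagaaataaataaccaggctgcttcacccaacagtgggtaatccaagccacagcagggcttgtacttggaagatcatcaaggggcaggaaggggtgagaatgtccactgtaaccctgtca
Cyp2r1: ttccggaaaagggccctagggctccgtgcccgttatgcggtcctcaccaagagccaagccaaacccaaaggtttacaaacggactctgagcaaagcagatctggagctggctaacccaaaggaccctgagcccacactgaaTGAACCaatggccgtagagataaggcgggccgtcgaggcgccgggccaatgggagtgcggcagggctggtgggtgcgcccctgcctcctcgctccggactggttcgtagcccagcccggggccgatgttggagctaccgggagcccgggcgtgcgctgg
Cyp2r1 differs from the others in base composition. Its window holds 22 CpG and is 64.3% G and C, the highest of the 53, whose medians are 2 CpG and 47.7%. All windows together have medians of 7 CpG and 52.7%. Cyp2r1 and Cyp2j5 had a peak of all 6 lists over the window. At Cyp2e1 a peak covered it in 3 lists, those of RXRα under both diets and RARβ under RA.

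The last pair, Cyp2b13 at chr7:26061245-26061544 and Cyp2b9 at chr7:26173159-26173458 (both plus strand), is shown because the copies are nearly identical. Both genes are known for higher expression in female than in male mouse liver.
Cyp2b13: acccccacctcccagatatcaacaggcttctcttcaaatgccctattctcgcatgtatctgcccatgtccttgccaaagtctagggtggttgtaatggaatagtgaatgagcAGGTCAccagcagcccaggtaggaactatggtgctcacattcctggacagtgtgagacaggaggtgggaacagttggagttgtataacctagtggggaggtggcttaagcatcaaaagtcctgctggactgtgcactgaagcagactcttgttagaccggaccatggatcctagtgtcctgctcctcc
Cyp2b9: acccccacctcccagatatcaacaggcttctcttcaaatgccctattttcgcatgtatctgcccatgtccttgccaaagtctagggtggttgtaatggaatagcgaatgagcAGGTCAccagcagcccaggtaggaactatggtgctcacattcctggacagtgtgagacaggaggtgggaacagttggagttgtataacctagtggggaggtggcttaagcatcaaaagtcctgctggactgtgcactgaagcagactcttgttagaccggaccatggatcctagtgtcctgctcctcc
These windows differ at 2 of 300 positions and share 73.7% of their 35-base words. No peak of any list covered either. In all, 24 of the 53 windows shared at least 1 read-length word with another gene's window, and 4 shared over 50% of theirs (Cyp2b9, Cyp2b13, Cyp2c40 and Cyp2c69). Reads from such stretches cannot be placed on 1 copy, and the part of this in the peaks below was not tested.

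Under the control diet RXRα bound 49 of the 57 genes (86.0%; interval 74.7 to 92.7), against 61.8% of all protein-coding genes. Under RA it bound 48 (84.2%; 72.6 to 91.5), against 62.3%. RARα bound 42 genes under control (73.7%; 61.0 to 83.4) and 47 under RA (82.5%; 70.6 to 90.2), against 62.3% and 63.7% of all genes. RARβ bound 20 under control (35.1%; 24.0 to 48.1) and 45 under RA (78.9%; 66.7 to 87.5), against 44.5% and 55.2%. The plot of the share of genes bound shows that the members were above the share of all genes in each list except that of RARβ under control. The 42 other Cyp genes, which mostly make or break down sterols, bile acids and fatty acids, came to 73.8% for RXRα under both diets, 64.3% and 71.4% for RARα and 33.3% and 61.9% for RARβ. The intervals of the members and of the other Cyp genes overlapped in each list.

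**Figure D1:**
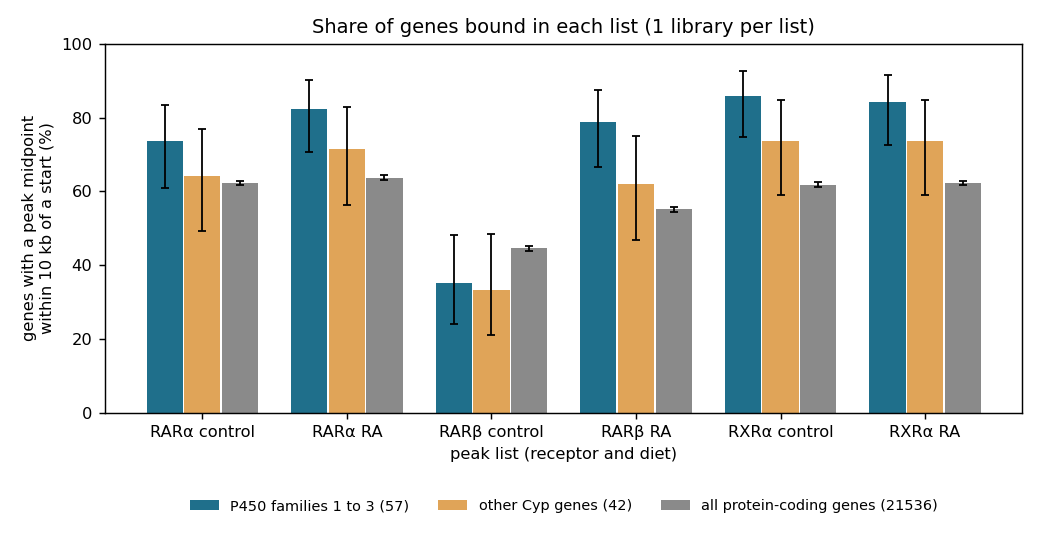
Share of genes with a peak midpoint within 10 kb of a start (vertical axis, percent) in each of the 6 lists, for the 57 P450 genes of families 1 to 3, the 42 other Cyp genes and all 21536 protein-coding genes; error bars are Wilson 95% intervals. The P450 bars run from 35.1% for RARβ under control to 86.0% for RXRα under control.

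Counted within 1 kb of a start, RXRα bound 32 members under control and 33 under RA (56.1% and 57.9%), against 42.5% and 44.4% of all genes. RARα bound 29 and 32 (50.9% and 56.1%), against 49.1% under control and 49.1% under RA. RARβ bound 13 and 25 (22.8% and 43.9%), against 35.2% and 42.9%. Near the start, the RARα share under control and the RARβ share under RA were thus close to those of all genes.

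The members fell into few patterns. A peak was present in all 6 lists for 14 genes (24.6%, against 38.8% of all genes), and in 5 lists for 27 genes (47.4%, against 12.9% of all genes). For the other Cyp genes the shares were 28.6% in all 6 lists and 28.6% in 5 lists. Among these, the 20 genes of family 4 came to 25% and 35%. For 22 of the 27 members in 5 lists the missing list was RARβ under control, a count not made over all genes. The number in all 6 lists was 5 in lists of equal length and 3 with scores of at least 100, where the share of all genes was not counted. No list had a peak for 7 members (12.3%, against 27.8% of all genes and 19.0% of the other Cyp genes), namely Cyp2b19, Cyp2b23, Cyp2j8, Cyp2j11, Cyp2j12, Cyp2j13 and Cyp2s1. Of these, Cyp2b19 and Cyp2s1 are known from skin and other epithelia rather than from hepatocytes. Cyp1b1, which is known from tissues outside the liver, had 1 peak in 1 list.

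Against peaks near all genes, the RXRα peaks at the members scored high, whereas those of RARα and RARβ scored low. Within the whole lists, the median percentile of the member peaks was 62.1 under control and 67.5 under RA for RXRα. It was 39.1 and 44.3 for RARα and 39.8 and 47.4 for RARβ, so the RAR peaks under RA stood not far below the middle. The median score of the 126 RXRα peaks under control was 192, against 136 for RXRα peaks within 10 kb of any protein-coding gene. Under RA the 122 peaks had a median of 228, against 144. The 63 RARα peaks under control had a median of 90.5, against 160.3, and the 89 under RA 109, against 160.4. The 21 RARβ peaks under control had a median of 67.9, against 88.9, and the 69 under RA 95.4, against 114. Here and below, a gene's best peak is its highest-scoring one in a list, and it may lie at a different site in each list. Taking the best peak of each bound gene, the median percentile of the members was 88.9 for RXRα under control and 88.5 under RA, where that of all bound genes was 63.7 and 65.0. For RARα it was 46.1 and 68.0, against 79.3 and 79.0. For RARβ it was 40.7 and 51.3, against 68.6 and 71.6. The heat map of best peaks shows this as the bright RXRα columns beside the darker RAR columns in most rows.

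**Figure D2:**
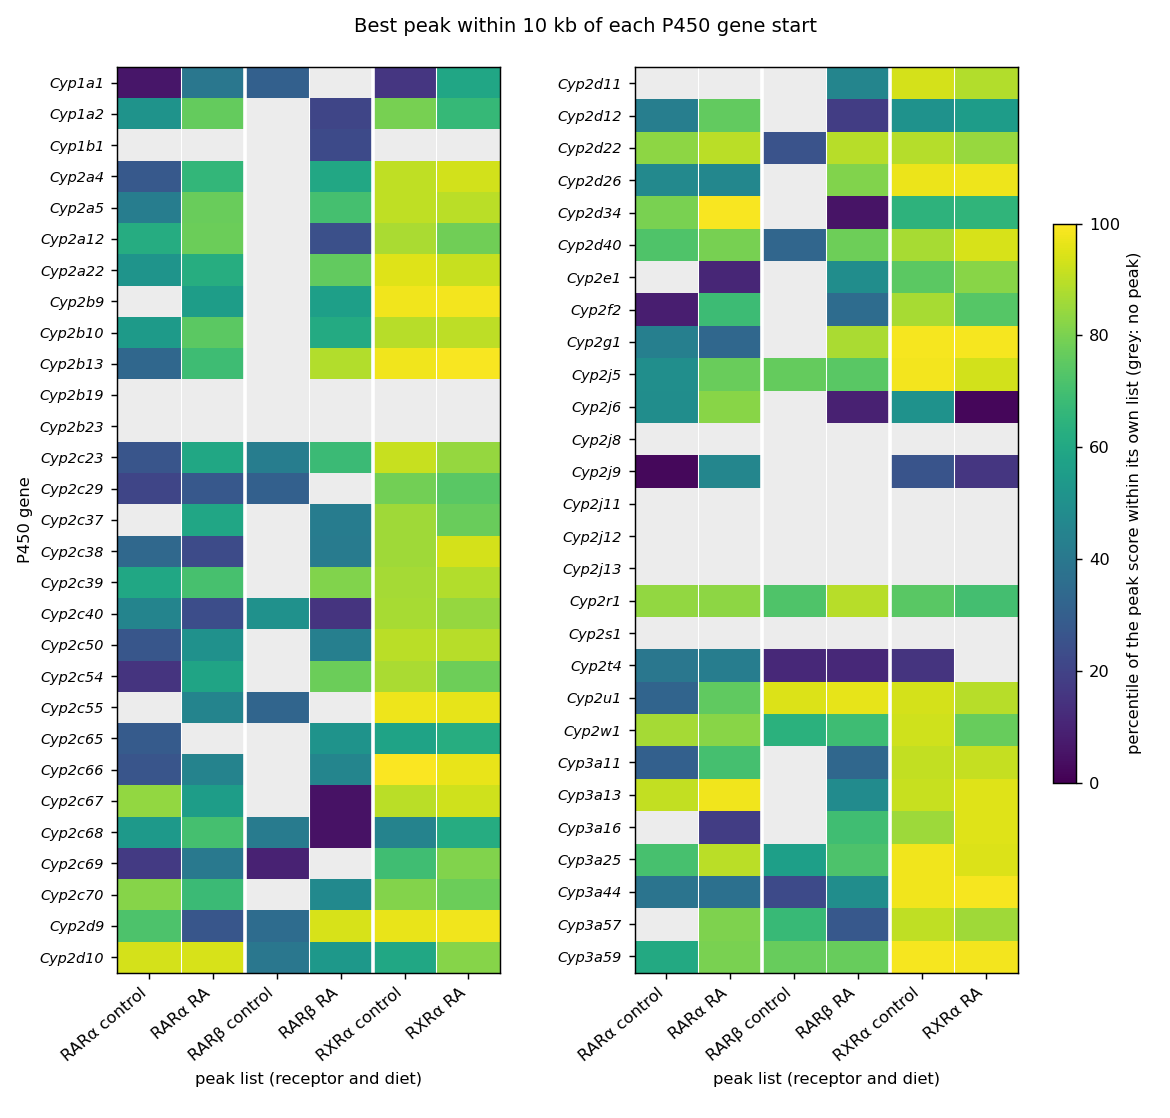
Best peak within 10 kb of each of the 57 P450 genes (rows) in each of the 6 lists (columns), coloured by the percentile of its score within its own list from 0 to 100; grey marks genes with no peak. The RXRα columns hold the highest percentiles (medians of 88.9 and 88.5 among bound genes), the RARβ control column is mostly grey (20 genes bound), and 7 rows are grey in each list.

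In family 1, the genes known as aryl hydrocarbon receptor targets, Cyp1a1 and Cyp1a2 had peaks of all 3 receptors, with 5 RARα and 6 RXRα peaks between them under RA, and Cyp1b1 had a single peak. At Cyp1a2 the best RARα peak scored 115 under control and 229.8 under RA, the RARβ list had a peak only under RA (score 64.5), and RXRα scored 321 under control and 225 under RA. The RXRα control peak stood at percentile 79.3 and the RARα peak under RA at 76.3. Its best RXRα peak under control lay at chr9:57685839-57686695, 2612 bp upstream of the start. Cyp1a1, its neighbour, scored lower, with RARα at 54.2 and 99.6 and RXRα at 67.5 (1004 bp upstream) and 182 (1000 bp past the start). It had a RARβ peak only under control (62.1), 987 bp upstream. With the outermost start of the gene span, 9685 bp away, Cyp1a1 also had a RARβ peak under RA, so this call ends and 3 members in place of 4 were bound by RARβ under control only. The single peak at Cyp1b1 was of RARβ under RA, with a score of 66.1 at chr17:79715611-79716054, 771 bp upstream of the start. The RARβ peaks of family 1 lay between percentiles 20.9 and 30.8 of their lists.

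All 4 Cyp2a genes were bound by RXRα and RARα under both diets, and by RARβ under RA and not under control. Cyp2a5 hydroxylates coumarin. Its best RXRα peak scored 497 under control and 496 under RA, at percentiles near 90, and its best RARα peak 95.9 and 235. The RARβ peak under RA scored 142. Cyp2a22 had its best peaks of RARα, RARβ and RXRα over the start itself, with RXRα at 662 under control and 546 under RA and RARβ at 158 under RA. Each receptor also had a peak further away. Under RA RARα scored 161 at the start and 160 at a peak 2417 bp upstream.

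Of the 5 Cyp2b genes, 3 were bound and 2 (Cyp2b19 and Cyp2b23) were not. Cyp2b10, known for its strong induction through CAR, had its best RXRα peak about 2.3 kb upstream, at chr7:25895006-25895760 under RA, with scores of 469 under control and 504 under RA. RARα scored 122 and 220.5 at peaks 6473 and 6575 bp past the start, and RARβ 119.7 under RA only. Cyp2b13 had the highest RXRα score of all members under RA, 1177 at chr7:26054676-26055754, which is 6280 bp upstream of the start, and 853 under control. At the same gene RARα scored 81.4 and 188.9 and RARβ 219.8 under RA only. At Cyp2b9 RXRα scored 881 and 944 about 4.3 kb upstream, RARα 139.5 and RARβ 110.6, both under RA only. The 3 bound Cyp2b genes thus held RXRα peaks under both diets at percentiles whose median was 97.7 under control and 98.1 under RA, with no RXRα peak within 1 kb of a start.

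All 15 Cyp2c genes were bound by RXRα under both diets. RARα bound 13 under control and 14 under RA, and RARβ bound 6 and 12. Mouse Cyp2c enzymes oxidise arachidonic acid, and Cyp2c70 makes muricholic acids, bile acids typical of rodents. Cyp2c66 held the highest RXRα score of all members under control, 1178 at chr19:39108253-39108827, 5358 bp upstream, and 803 under RA, while its RARα scores were 72.6 and 110.2 and its RARβ score 92.3 under RA only. The highest RARα control scores of the Cyp2c genes were those of Cyp2c67 (270.5, percentile 83.7) and Cyp2c70 (255.8, percentile 81.9). Under RA the best RARα peaks of these 2 genes scored 139 and 184, at percentiles 55.6 and 68.0. At Cyp2c67 the peak midpoints lay 973 bp past the start under control and 86 bp upstream under RA. At Cyp2c70 they lay 1218 bp past it and 43 bp upstream. Cyp2c70 had RXRα scores of 343 and 309. At Cyp2c37, RARα (151), and RARβ (87.7) had peaks under RA only, beside RXRα at 405 and 306. Cyp2c38 and Cyp2c50 were bound by RARα under both diets (82.0 and 73.8, and 73.2 and 124), by RARβ under RA only (87.1 and 89.0), and by RXRα about 1 kb upstream (403 and 623, and 477 and 493). Cyp2c54 followed the same pattern with peaks at or near the start, with RARα at 61.2 and 147.5, RARβ at 164 under RA and RXRα at 429.7 and 315. Cyp2c23, which lies apart from the cluster, was bound in all 6 lists, with RXRα at 535 and 394. Cyp2c65 was the 1 gene with a RARα peak under control only (75.8).

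All 8 Cyp2d genes, relatives of the human gene for the enzyme that handles debrisoquine and codeine, were bound by RXRα under both diets. RARα bound 7 under both diets, with no RARα peak at Cyp2d11, and RARβ bound 4 under control and 8 under RA. RARα scored highest here. Cyp2d10 held the highest member score of RARα under control, 404 at chr15:82405645-82407743, 500 bp past the start, and 424 under RA. Cyp2d34 held the highest under RA, 670.0 at chr15:82614404-82615014, 6247 bp past the start, against 239 under control. Cyp2d22 was bound in all 6 lists, with RARα at 263 and 353, RARβ at 59.4 and 223 and RXRα at 462 and 400.4. Cyp2d9, a steroid hydroxylase known for male-biased expression in mouse liver, had RARα at 190.5 under control and 78.5 under RA, RARβ at 64.8 and 278, and RXRα at 759.9 and 934. The RARα peaks lay at different sites, 4894 bp past the start under control and 8610 bp upstream under RA.

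Among the Cyp2 genes with 1 or few copies, Cyp2u1, a fatty acid hydroxylase, held the highest RARβ score of all members under both diets. It was 239 under control and 326 under RA, at chr3:131302987-131303578, 875 bp past the start; RARα scored 80.2 and 225 and RXRα 599.6 and 489. Cyp2r1 had peaks over its start in all 6 lists with similar percentiles for the 3 receptors, from 70.0 to 89.1. Its scores were 272 and 282 for RARα, 109 and 223 for RARβ, and 274 and 245 for RXRα. Cyp2e1 was bound by RXRα under both diets (277 and 362) and by RARα (60.7) and RARβ (97.9) under RA only. Its best RXRα peaks lay at different sites, 6711 bp upstream under control and 13 bp past the start under RA. Cyp2g1, known from the olfactory mucosa, had RXRα at 964 and 1030.3, with the RA peak 7795 bp upstream at chr7:26800726-26801539, beside weak RARα (97.8 and 88.5) and RARβ under RA only (209.9). Cyp2w1 was bound in all 6 lists, with RARα at 298 and 274. Cyp2t4 was the 1 member with a RXRα peak under control (66.3) and none under RA.

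Of the 7 Cyp2j genes, Cyp2j5, Cyp2j6 and Cyp2j9 were bound and 4 were not bound in any list. Cyp2j5 was bound in all 6 lists, with RXRα at 939 under control and 607 under RA, at chr4:96664778-96665575 under control, 1057 bp upstream. Its RARα scores were 111 and 235 and its RARβ scores 119 and 153. Cyp2j6 had RARα at 109.7 and 274, RARβ at 55.7 under RA only, and RXRα at 145 and 52.0, so that at this gene the RXRα percentile was low under RA.

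All 7 Cyp3a genes, whose enzymes metabolise many drugs and steroids, were bound by RXRα under both diets. RARα bound 5 under control and 7 under RA, and RARβ bound 4 and 7. Cyp3a59 held one of the 3 highest member scores of RXRα under control, 957, and 989 under RA at chr5:146078667-146079553, over the window printed above. Its RARα scores were 141 and 256 and its RARβ scores 120.1 and 161. At Cyp3a57 RARα had a peak under RA only (261), RARβ scored 98.9 and 70.7 and RXRα 496 and 417. Cyp3a44, known for higher expression in females, had RXRα at 888 and 1008 more than 5 kb past the start. RARα scored 89.3 under control, 5583 bp past the start, and 94.2 under RA, 5853 bp upstream. Cyp3a11 had its best RXRα peak about 1.6 kb upstream, at chr5:145881081-145882004 under RA, with scores of 505 and 543. RARα scored 78.0 under control 89 bp past the start and 196 under RA 1804 bp past it, and RARβ 77.0 under RA only, 1565 bp upstream. Cyp3a13 stands apart on chromosome 5 and held strong RARα peaks at its start, 353 under control and 562 under RA at chr5:137921294-137922057, with RARβ at 96.8 under RA only and RXRα at 536 and 678. Cyp3a41a and Cyp3a41b, whose symbols the rule leaves out, had RXRα peaks in both diets with scores of 825 and 1017 for Cyp3a41a and 901 and 893 for Cyp3a41b, and peaks of RARα and RARβ under RA only.

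The control and RA lists answer how the receptors were placed after RA feeding. For RXRα, 48 members were bound under both diets (84.2%, against 58.2% of all genes). None was bound under RA only, against 4.09% of all genes, and 1 (Cyp2t4) under control only, against 3.62%. Of the RXRα member peaks under control, 106 of 126 (84.1%; interval 76.8 to 89.5) were shared with the RA list at 25% of the width of each peak, and 81.9% of RXRα peaks near all genes. Among genes with peaks in both lists, the best peak stood at a higher percentile under RA in 23 of 48 (47.9%, against 52.7% of all genes) and lower in 25, with medians of 89.1 and 88.5 (all genes 65.9 and 67.1).

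For RARα, 41 members were bound under both diets, against 59.9% of all genes. Peaks were present under RA only for 6 (Cyp2b9, Cyp2c37, Cyp2c55, Cyp2e1, Cyp3a16 and Cyp3a57; 10.5%), against 3.84% of all genes, and under control only for 1 (Cyp2c65), against 2.43%. The members' place in the RARα list differed between diets more than these counts. Of the 41 genes with peaks under both diets, the best peak stood at a higher percentile under RA in 31 and at a lower one in 10. The median percentile was 47.1 under control and 69.0 under RA, whereas over the 12896 genes of the genome with peaks in both lists it was 80.3 and 80.7, and 52.1% of those stood higher under RA. Counted as rank from the top of the list, which the longer RA list does not favour, 28 of 41 members stood nearer the top under RA (68.3%), against 37.3% of all genes. Cyp2d9 went furthest the other way, from percentile 72.1 under control to 26.7 under RA. Its best RARα peaks lay at different sites, 4894 bp past the start under control and 8610 bp upstream under RA. At the upstream site RARα scored 74.9 under control and 78.5 under RA. With 1 library per diet, these values describe the 2 RARα lists. In lists of equal length RARα bound 14 members under control and 24 under RA, and the share of all genes was not counted there.

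**Figure D3:**
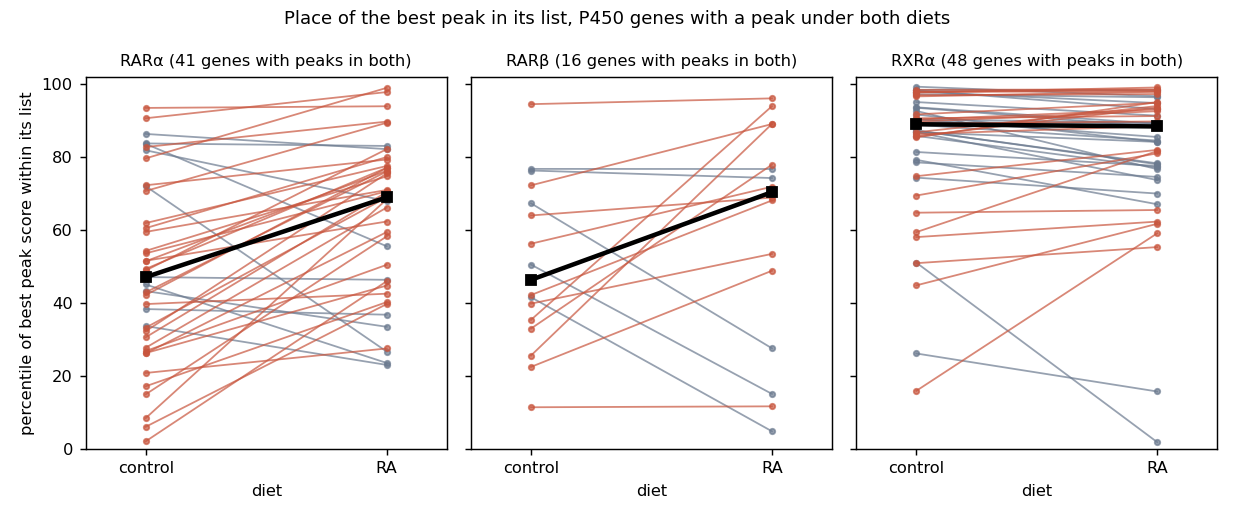
Percentile of the best peak score within its own list (vertical axis) under control and RA for the P450 genes with a peak under both diets, 41 for RARα, 16 for RARβ and 48 for RXRα. Each line is 1 gene (red where the percentile is higher under RA, grey-blue where lower) and the black line joins the medians, 47.1 and 69.0 for RARα, 46.4 and 70.4 for RARβ and 89.1 and 88.5 for RXRα.

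For RARβ, 16 members were bound under both diets (28.1%, against 42.1% of all genes). Peaks were present under RA only for 29 members (50.9%), against 13.1% of all genes, and under control only for 4 (Cyp1a1, Cyp2c29, Cyp2c55 and Cyp2c69; 7.02%), against 2.47%. The 29 took in all 4 Cyp2a genes, all 3 bound Cyp2b genes, 9 of the 15 Cyp2c genes, 4 of the 8 Cyp2d genes and 3 of the 7 Cyp3a genes. The best scored of them under RA were those of Cyp2b13 (219.8), Cyp2g1 (209.9) and Cyp2c39 (178). An RXRα peak was present under both diets for 28 of the 29, and the exception was Cyp1b1. Over all 57 members that number was 48, and the like share over all genes was not counted. The RARβ lists differ most in length, and the call depends on that. In lists of equal length RARβ bound 20 members under control and 23 under RA, with 12 under RA only and 9 under control only. With a score of at least 100 it bound 4 and 23, with 19 under RA only and 0 under control only. Scores are not normalised between lists, and this limit kept 32.0% of the RARβ control list and 49.7% of its RA list. The shares of all genes bound under either cut were not counted. In the full lists, 53 of the 69 RARβ member peaks under RA had no overlap with a RARβ peak under control. Of these, 51 (96.2%; interval 87.2 to 99.0) overlapped a peak of RXRα under control by that measure, against 81.8% of such RARβ peaks near all genes, and 27 (50.9%; 37.9 to 63.9) a peak of RARα under control, against 54.4%. Their median score was 88.1, against 124 for the other 16. Among the 16 genes with RARβ peaks under both diets, the best peak stood at a higher percentile under RA in 11 (68.8%, against 64.5% of all genes), but nearer the top of the list by rank in 4 of 16, against 32.7% of all genes.

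Peaks of different lists that overlapped were merged into 155 regions. The regions with a peak in all 6 lists numbered 10, and 38 had a peak in 1 list. The commonest pattern was a peak in each list but RARβ under control (24 regions). Next came RXRα under both diets without a RAR (20 regions), and RXRα under control alone (16 regions). RXRα under either diet without a RAR in any list made 45 regions, and RARα without RXRα or RARβ made 16. Regions were not merged over all genes, so these counts describe the members alone.

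In the full lists most RAR peaks at the members lay on RXRα peaks of the same diet. For RARα, 79.4% of member peaks under control (interval 67.8 to 87.5) and 78.7% under RA (69.0 to 85.9) were shared with RXRα, against 67.8% and 68.9% of RARα peaks near all genes. For RARβ the shares were 85.7% under control (18 of 21 peaks) and 94.2% under RA (86.0 to 97.7), against 79.5% and 88.2%. In lists of equal length the shares were 46.7% and 52.0% for RARα and 52.4% and 80.0% for RARβ, so under control the RARα share no longer reached most of the peaks. The shares of peaks near all genes were not counted at equal length. Read from the RXRα side, 40.5% of its member peaks under control (32.3 to 49.2) lay on a RARα peak, against 50.8% of those near all genes, and 14.3% (9.23 to 21.5) on a RARβ peak, against 32.8%. Under RA the shares were 58.2% and 53.3%, against 58.3% and 56.9%. Each member bound by RARα or RARβ under control was also bound by RXRα. Under RA the exceptions were Cyp2t4 for RARα and RARβ, and Cyp1b1 for RARβ. The same count over all genes was not made.

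In these lists fewer of the member peaks lay close to the start than of the peaks near genes in general. Within 1 kb of a start lay 47.6% of the RARα member peaks under control and 37.1% under RA, against 63.4% and 57.3% of RARα peaks near all genes. The shares were 61.9% and 40.6% for RARβ, against 78.0% and 63.4%, and 29.4% and 29.5% for RXRα, against 43.1% and 45.0%. RXRα peaks at the members lay upstream in 61.9% and 63.9% of cases, against 50.4% and 49.4%. RARβ peaks lay upstream in 61.9% under control, against 60.5%, and in 66.7% under RA, against 53.0%, whereas RARα peaks lay upstream in 42.9% and 48.3%, against 49.0% and 50.2%. For the best RXRα peak of each gene under control, 16 of 49 lay within 1 kb, 20 between 1 and 5 kb, and 13 beyond 5 kb. For RARα under control, 28 of 42 lay within 1 kb. The window of 10 kb cuts through some strong peaks. Just outside it, 10164 bp from the Cyp2c69 start, lay an RXRα control peak with a score of 351, and 10388 bp from Cyp2d10 a RARα peak under RA with a score of 438; just inside it, an RXRα control peak 9851 bp from Cyp2d11 scored 136.

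**Figure D4:**
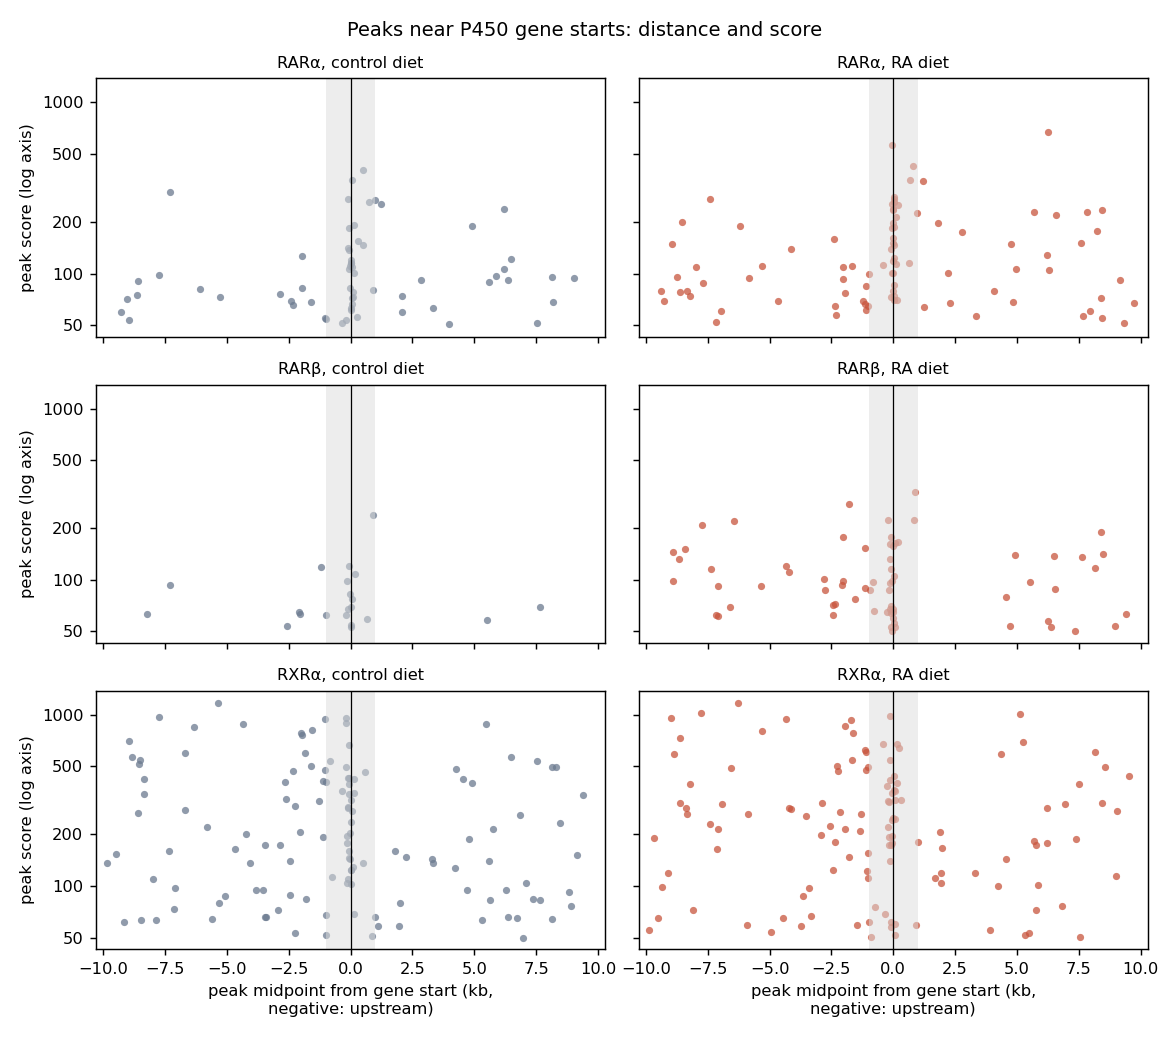
Distance of each peak midpoint from the nearest start of its P450 gene (horizontal axis, kb; negative is upstream) against the peak score (vertical axis, logarithmic), 1 panel per receptor and diet; the grey band marks 1 kb on each side of the start. High RXRα scores occur across the whole window and up to 1178, whereas the RARα and RARβ panels are densest at the start and reach 670.0 and 326.

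Some recent copies of 1 gene carried peaks at like distances from their own starts, and others did not. The pairs were chosen after their values were seen. Cyp2a4, a steroid hydroxylase known for higher expression in females, had 6 RXRα peaks under control, and Cyp2a5, of the same cluster, had 5. All 5 of the latter matched a Cyp2a4 peak within 250 bp. The strongest lay 8160 bp past the start of Cyp2a4 (score 495) and 8295 bp past that of Cyp2a5 (497), and another lay 3459 and 3470 bp upstream (172 and 65.8). Under RA 3 of the 5 peaks at Cyp2a4 had such a match. The strongest did not, with midpoints 8169 and 8571 bp past the start and widths of 933 and 1783 bp. Cyp3a25 and Cyp3a59 had RXRα control peaks 185 and 187 bp upstream, with scores of 892 and 957, and again 8845 and 8956 bp upstream, with scores of 565 and 703. Under RA 1 of the 3 RXRα peaks at Cyp3a25 had a match at Cyp3a59. Both genes still had a strong peak at the start, with scores of 674 and 989. Their midpoints, 133 bp past the start and 148 bp upstream, missed the 250 bp limit, and their widths were 1448 and 887 bp. The RARβ control peaks of this pair lay 32 and 69 bp upstream. In Cyp2b9 and Cyp2b13, whose windows are nearly identical, no peaks matched, since the strong RXRα peak lay 4357 bp upstream of the first and 6335 bp upstream of the second. Whether reads shared between copies bear on these positions was not tested.

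**Figure D5:**
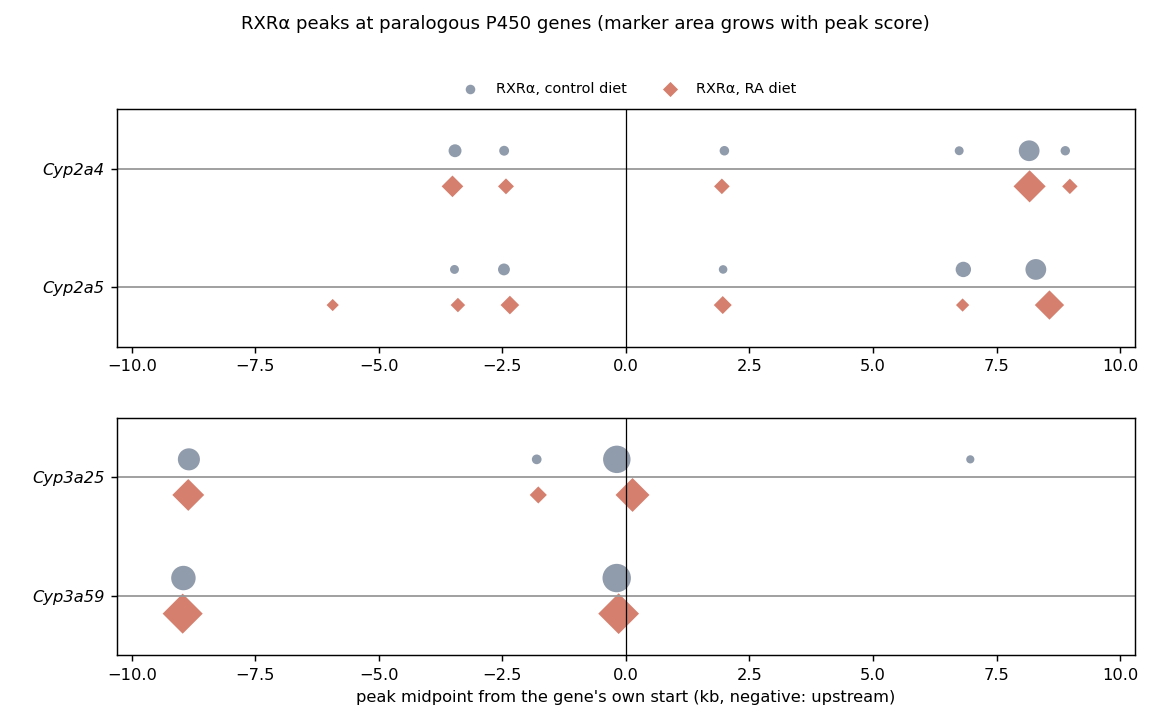
RXRα peaks of Cyp2a4 and Cyp2a5, of the same cluster (top), and of Cyp3a25 and Cyp3a59 (bottom), placed by distance from each gene's own start (horizontal axis, kb; negative is upstream), with circles for the control diet, diamonds for RA and marker area growing with the score. All 5 control peaks of Cyp2a5 stand within 250 bp of the place of a Cyp2a4 peak. Under control both Cyp3a genes have a peak just upstream of the start and another near 8.9 kb upstream. Under RA the Cyp3a25 peak nearest the start lies 133 bp past it.

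The other genes of the P450 system were given by a list of 15 genes of electron transfer, haem synthesis, epoxide hydrolysis and regulation. RXRα bound 14 under both diets, RARα 14 under both and RARβ 11 under control and 13 under RA, against the shares of all genes above. Por, the reductase that passes electrons to each microsomal P450, was bound in all 6 lists and had RXRα scores of 1376 under control and 1661 under RA, above those of each of the 57 members. Its RARα scores were 349 and 337 and its RARβ scores 142 and 425. Nr1i3 (CAR) was bound in all 6 lists, with RXRα at 946 and 1215, RARα at 195 and 308 and RARβ at 55.9 and 284. Nr1i2 (PXR) had RXRα at 876 and 961 and RARα at 179.8 and 239, with RARβ under RA only (93.0). Ephx1, the microsomal epoxide hydrolase, likewise had RARβ under RA only (272). Alas1, the rate-limiting enzyme of haem synthesis, had its highest scores with RARα, 711 and 708. Ahr and Arnt were bound in all 6 lists with RXRα at 159 and 325 for Ahr and 172 and 162 for Arnt. Ahrr, the aryl hydrocarbon receptor repressor, had peaks of RARα alone, and Nr3c1, the glucocorticoid receptor, of RXRα alone. As a check of the tissue, RXRα bound all 5 of the hepatocyte genes Alb, Apoa1, Serpina1a, Trf and Ttr under both diets, and 2 (control) and 3 (RA) of 8 marker genes of other cells, while RARα bound 3 of the 5 and 4 of the 8 under each diet. RARβ bound 1 of the 5 and 1 of the 8 under control, and 4 of the 5 and 0 of the 8 under RA. Of the 8, Clec4f (a Kupffer cell marker), Krt5 and Reln had no peak in any list. Gfap had a peak in 5 lists, Ins2 in 4, Lrat and Stab2 in 2 each and Myh6 in 1. Alb had peaks of RXRα alone. A peak is not a measure of expression, so this check is a weak one.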

How the data were processed

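The data comprised 6 ChIP-seq libraries of mouse liver (RARα, RARβ and RXRα under the control diet and under RA, 1 library each) and 1 input library, for which no processed file was used here. Per the labels and the study's methods, the authors aligned single-end reads of 35 bp to mm10 with Bowtie and called peaks with MACS; the labels also name CASAVA 1.4. The authors deposited 1 BED list per library, whose score for each peak is the caller's own value, a multiple of the negative log10 of the p-value. The deposited score is not normalised between libraries, and no list held a score under 50. Read totals are not in the lists, so the depth behind each is unknown and may differ between lists. The use of mm10 rests on the labels; the highest peak end on chromosome Y is 90842021.

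Gene spans came from a RefSeq table of GRCm38.p6. Starts came from the RefSeq promoter table of the same build for 50 members, where all starts of a gene were used and distances run to the nearest. For the other 7 members the outer end of the gene span was used, with the strand from GENCODE M1 by symbol; no coordinate of that older build was used. Exons and introns were not analysed here. A peak was assigned when its midpoint lay within 10 kb of a start, so 1 peak can belong to more than 1 member. Lists were compared by overlap of at least 25% of the width of each peak, after the study's definition. Alternatives were a score of at least 100, lists of equal length, a window of 5 kb, any base of the peak in place of the midpoint, the nearest start only, an overlap of 50% or of 1 base and, added after seeing the data, the outermost start of each gene. Scripts ran in Python 3.11.15 with pandas 2.3.3, numpy 2.4.6 and matplotlib 3.10.9, and the assignment and overlap steps were tested on simulated data. With 1 library per group no test was made, and Wilson 95% intervals cover counting error only.

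The members, the other gene lists and the named genes were chosen with earlier results of these data known. The named genes were a set of well-known or study-named members, the 3 members with the highest-scoring peak in each list, up to 3 members bound under 1 diet only for each receptor and direction, the member bound in most lists of each larger subfamily, the other P450 system genes and the members with no peak. Cyp3a41a was in that set but its symbol is outside the rule for members. Members named beyond these were chosen after their values were seen.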

Additional observations from a re-analysis of the deposited data

Results flagged for a closer look

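RA minus control differences were positive for RARα and RARβ and slightly negative for RXRα, and this difference between receptors was not tested, since each receptor and diet had 1 library. The number of members bound was 5 higher under RA for RARα and 25 higher for RARβ, and differed by -1 for RXRα. The number of member peaks was 26 higher under RA for RARα and 48 higher for RARβ, and differed by -4 for RXRα. The RXRα direction is not stable. Its members bound were equal under both diets in lists of equal length (37), with scores of at least 100 (46), within 5 kb (43) and by the nearest start (48), and its peaks at a score of at least 100 numbered 92 under control and 97 under RA. These differences run alongside the lengths of the lists, which were 35521 and 44296 peaks for RARα, 14968 and 29467 for RARβ and 61128 and 59624 for RXRα; the part of list length in them was not tested beyond the lists of equal length given under the processing.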

How the results depend on the processing

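Values are given as the value under the alternative, control before RA. They cover the members alone, since the shares of all genes were not counted under the alternatives. In lists cut to the same length, RARα bound 14 and 24 members with 15 and 25 peaks, RARβ bound 23 under RA with 30 peaks, and RXRα had 50 peaks under each diet. All 6 lists then held 5 members, and members bound under RA only and under control only numbered 12 and 2 for RARα, 12 and 9 for RARβ and 3 and 3 for RXRα. Peaks shared between diets came to 60.0% and 36.0% for RARα and 36.7% for RARβ under RA, and peaks shared with RXRα to 46.7% and 52.0% for RARα and 52.4% and 80.0% for RARβ. A score of at least 100 kept from 32.0% (RARβ control) to 65.8% (RXRα RA) of a list's peaks, so it is not the same cut in each list. With scores of at least 100, RARα bound 22 members under control with 25 peaks and had 51 peaks under RA, and RARβ bound 4 and 23 with 4 and 29 peaks. All 6 lists held 3 members, RA only and control only came to 18 and 2 for RARα and 19 and 0 for RARβ, RXRα had 1 under RA only, and peaks shared between diets were 37.3% for RARα under RA and 100% for RARβ under control. Within 5 kb, RXRα had 81 and 80 peaks, RARα 58 under RA and RARβ 45 under RA, with 2 members under control only for RARα and, for RXRα, 2 under RA only and 2 under control only. At an overlap of 50%, RXRα shared 73.8% and 76.2% of its peaks between diets, and RARα 56.2% and RARβ 81.2% with RXRα under RA. Giving each peak to the nearest start alone left 0 members with RXRα under control only. The other 131 values moved by less than 1.5 times for counts or stayed within the main interval for shares, among them all under any base of the peak, an overlap of 1 base and the outermost start; the last ended the control-only RARβ call of Cyp1a1 (3 such members in place of 4). Beyond fewer peaks or a smaller window by construction, the cause of a move was not tested. No paired analysis was possible because each group has 1 library and the labels give no replicate numbers.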
